A study of Mus musculus with 8 samples.

Results

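The retinoic acid synthesis and receptor genes described here are 9 genes, chosen by name: Aldh1a1, Aldh1a2, Aldh1a3, Crabp1, Crabp2, Rara, Rarb, Rxrg and Cyp26b1. They were taken from the 48709 genes counted by RNA sequencing of mouse cortex. All 9 passed the filter on low counts that left 16525 genes for testing. Cortex of 4 dcKO_hGFAP-Cre mice was compared with cortex of 4 control mice at P3, the 3rd day after birth, on a C57BL/6J background. The dcKO_hGFAP-Cre mice had both copies of BAF155 and of BAF170 floxed and carried 1 hGFAP-Cre allele (BAF155 fl/fl; BAF170 fl/fl; hGFAP-Cre). BAF155 and BAF170 are subunits of the BAF complexes that remodel chromatin, and the question was how cortical gene expression differs when both are deleted. The methods give the controls as carrying Cre and 1 floxed copy of each gene (BAF155 fl/+; BAF170 fl/+), so both groups carry Cre, while the design text calls the controls wild types. In hGFAP-Cre mice a human GFAP promoter drives Cre in radial glia of the dorsal telencephalon, and cells of other lineages in the dissected tissue are not targeted. Control replicates 1 to 4 had 22106718, 21126713, 31805395 and 30553135 counts in total, and the mutants, in the same order, had 22002784, 22812236, 28249608 and 32110285.

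Retinoic acid is made from vitamin A. Retinol is oxidized to retinal, and the retinal dehydrogenases Aldh1a1, Aldh1a2 and Aldh1a3 oxidize retinal to retinoic acid. Enzymes of the Cyp26 family break it down, and the proteins Crabp1 and Crabp2 bind it in the cytoplasm. In the nucleus it binds the retinoic acid receptors (Rara, Rarb, Rarg), which sit on DNA as dimers with a retinoid X receptor (Rxra, Rxrb, Rxrg). In the developing forebrain the meninges are a known source of retinoic acid through Aldh1a2, and Rarb and Rxrg are known for their expression in the striatum.

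The deleted genes were examined first. Levels are given in CPM, counts scaled to a common library total with the TMM method. Smarcc1, which encodes BAF155, was at 144, 162, 171 and 160 CPM in control replicates 1 to 4 and at 79.4, 73.6, 86.9 and 84.7 CPM in mutant replicates 1 to 4. Smarcc2, which encodes BAF170, was at 500.3, 472, 489 and 469 CPM in the controls and at 291, 266, 256 and 319 CPM in the mutants. Both genes were lower in every mutant than in every control, and both were still counted in the mutants, where exons outside the deleted part and cells without Cre activity can contribute reads. The label of the tissue was checked against 10 markers of cortical excitatory neurons, all of which were detected in every sample. Their summed level was 1873, 1933, 2148 and 2171 CPM in control replicates 1 to 4 and 925, 1039, 927 and 1124 CPM in mutant replicates 1 to 4. Mutant replicates 1 and 2 stood apart in markers of the choroid plexus, the tissue that makes cerebrospinal fluid. The sum of 8 such markers was 618 and 1182 CPM in these samples, 25.0 and 12.2 CPM in mutant replicates 3 and 4, and 7.74 to 16.8 CPM in the controls.

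Of the 9 genes, 2 fell and 3 rose in dcKO_hGFAP-Cre cortex by the quasi-likelihood test of edgeR (Benjamini-Hochberg adjustment over all 16525 genes, threshold 0.05). Aldh1a3 and Cyp26b1 fell, so 1 enzyme of synthesis and the enzyme of breakdown were both lower. Crabp1, Rarb and Rxrg rose, with the largest difference in Rxrg. Aldh1a1, Aldh1a2, Crabp2 and Rara did not pass the threshold. The background was high: of all genes tested, 37.5% passed in either direction, 18.9% lower and 18.6% higher, so 5 of 9 is to be read against a share of more than 1 in 3. In the same 5 genes the mutant and control samples did not overlap, as in 34.4% of all genes tested. Calls with a log2 fold change of 1 or more in size were made for 4 of the 9 genes and for 7.21% of all genes. The median log2 fold change was 1.22 over the 9 genes and 0.02 over all genes. The median of the 9 was the value of Crabp2, which did not pass, and it was not stable. It was 0.43 with limma-voom, the value of Aldh1a2, and 0.81 without mutant replicate 3, again that of Crabp2. With library totals in place of TMM, the median over all genes was 0.15 and the calls split into 2102 lower and 4584 higher, against 3128 lower and 3074 higher with TMM. The 5 calls stood under both scalings.

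**Figure D1:**
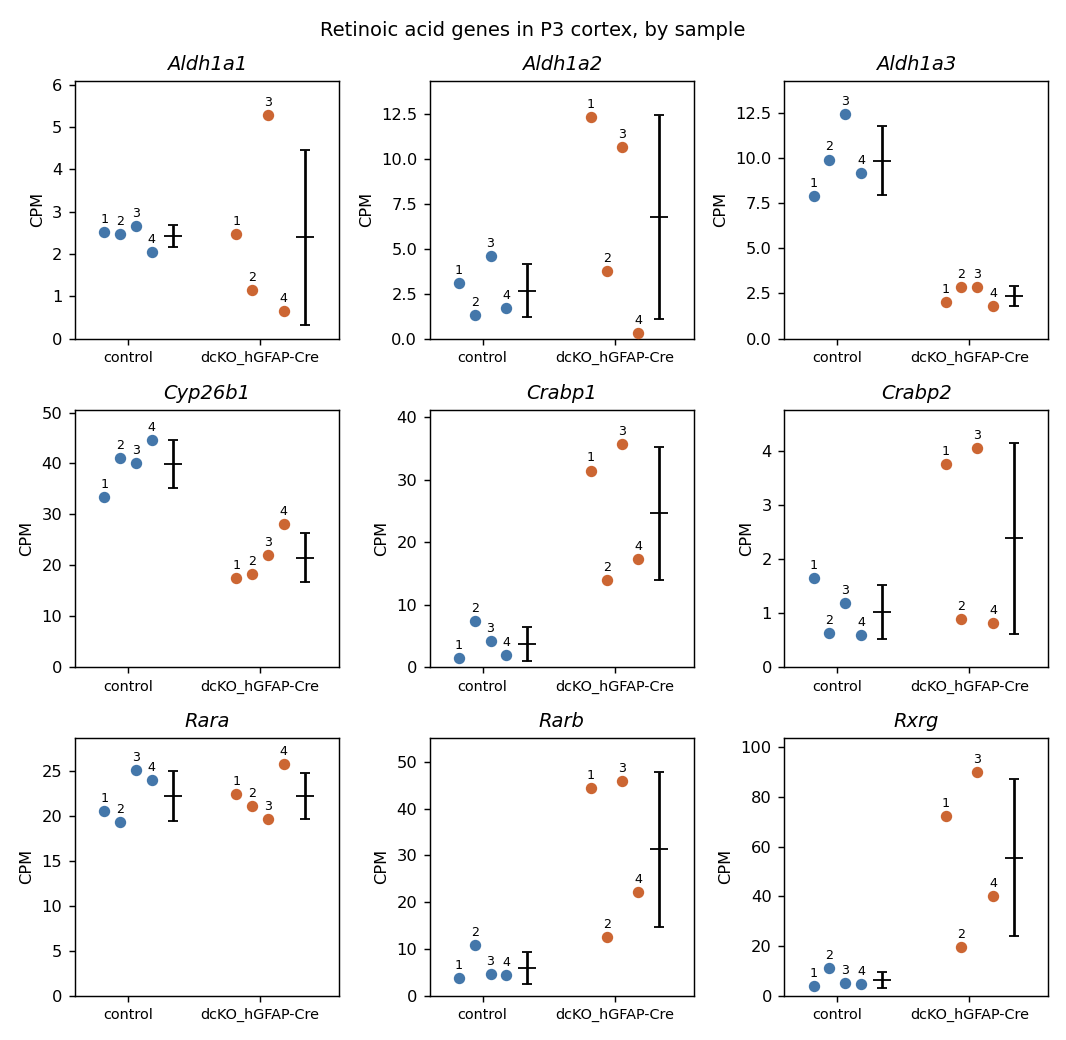
Level of each of the 9 genes in CPM (vertical axis, starting at 0) in every sample. Points are single mice with their replicate number, control in blue and dcKO_hGFAP-Cre in orange, and the black mark and bar are the mean and SD of 4 mice. The groups do not overlap in Aldh1a3, Cyp26b1, Crabp1, Rarb and Rxrg, while the mutants spread widely in Aldh1a1, Aldh1a2 and Crabp2.

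Of the 3 enzymes of synthesis, only Aldh1a3 passed the threshold. Aldh1a3 (ENSMUSG00000015134, chr7:66390890-66427517 of mm10, minus strand) was at 7.92, 9.91, 12.4 and 9.16 CPM in control replicates 1 to 4 and at 2.01, 2.84, 2.83 and 1.78 CPM in mutant replicates 1 to 4. Every mutant lay far under the lowest control, and the mutants differed little among themselves. The mean fell from 9.85 ± 1.90 to 2.37 ± 0.551 CPM (SD, n = 4 mice in each group), with a log2 fold change of -2.06 ± 0.20 (SE, edgeR's adjusted p = 1.33e-05). A two-sided exact permutation test on the CPM gave p = 0.0286, the lowest value its 70 arrangements permit. In bulk tissue, fewer cells that express a gene and less RNA in each of them cannot be told apart, here and in the results that follow.

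Aldh1a2 (ENSMUSG00000013584, chr9:71215789-71296243, plus strand) was at 3.08, 1.33, 4.58 and 1.70 CPM in control replicates 1 to 4. In mutant replicates 1 to 4 it was at 12.3, 3.77, 10.6 and 0.332 CPM, the last from 11 counts. Mutants 1 and 3 were above all controls, mutant 2 lay within their range and mutant 4 was under all of them. The log2 fold change was 1.31 ± 0.93 (SE, edgeR's adjusted p = 0.309). Over all alternatives it lay between 0.43 (limma-voom, adjusted p = 0.764) and 1.73 (without mutant replicate 4, 0.0371), and only without mutant replicate 4 did it pass. Without mutant replicate 1 it was 0.85 (0.548).

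Aldh1a1 (ENSMUSG00000053279, chr19:20492715-20643465, plus strand) was nearly even among the controls, at 2.53, 2.47, 2.66 and 2.05 CPM. The mutants were at 2.48, 1.14, 5.29 and 0.664 CPM, so replicate 3 was above and replicates 2 and 4 were under all controls. The means of 2.43 ± 0.264 and 2.39 ± 2.08 CPM (SD, n = 4 mice in each group) were close together, although the single mutants were not. The log2 fold change of -0.02 ± 0.54 (SE, edgeR's adjusted p = 0.985) had no stable sign. It was -0.79 without mutant replicate 3, 0.33 without mutant replicate 4 and 0.11 with library totals. Aldh1a1 has a near copy in Aldh1a7, in which 6.54% of the 50-base stretches of the longest Aldh1a1 transcript occur unchanged. How far this affects the counts of Aldh1a1 was not tested.

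Cyp26b1 (ENSMUSG00000063415, chr6:84571414-84593908, minus strand), which hydroxylates retinoic acid and so starts its breakdown, was at 33.4, 41.2, 40.2 and 44.6 CPM in the controls. In mutant replicates 1 to 4 it was at 17.6, 18.4, 22.1 and 28.1 CPM. The groups did not overlap, with the closest pair formed by mutant 4 and control 1. The mean fell from 39.8 ± 4.69 to 21.5 ± 4.79 CPM (SD, n = 4 mice in each group), a log2 fold change of -0.89 ± 0.15 (SE, edgeR's adjusted p = 6.43e-04). Cyp26a1 and Cyp26c1, the other enzymes of the family, were too low to be tested. Cyp26a1 had 3 to 9 counts in the controls and 5 to 13 in the mutants, and Cyp26c1 had 0 counts in all controls and at most 1 in a mutant.

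The binding proteins Crabp1 and Crabp2 had higher mean levels in the mutants, and only Crabp1 passed the threshold. Crabp1 (ENSMUSG00000032291, chr9:54764748-54773110, plus strand) was at 1.47, 7.35, 4.12 and 1.94 CPM in control replicates 1 to 4 and at 31.5, 13.9, 35.8 and 17.3 CPM in mutant replicates 1 to 4. All mutants exceeded all controls, although both groups spread several-fold. The mean rose from 3.72 ± 2.68 to 24.6 ± 10.6 CPM (SD, n = 4 mice in each group), a log2 fold change of 2.74 ± 0.56 (SE, edgeR's adjusted p = 0.00801; 0.0522 with a replicate block). Crabp2 (ENSMUSG00000004885, chr3:87948666-87953376, plus strand) was at 1.66, 0.641, 1.20 and 0.590 CPM in the controls and at 3.76, 0.890, 4.06 and 0.815 CPM in the mutants. Mutants 1 and 3 were above all controls, and mutants 2 and 4 lay within their range, as the plot of levels by sample shows. Its log2 fold change was 1.22 ± 0.60 (SE, edgeR's adjusted p = 0.143), and over all alternatives it lay between 0.81 (without mutant replicate 3, adjusted p = 0.319) and 1.53. It passed without mutant replicate 4 (1.53, 0.0489) and with a replicate block (1.08, 0.0102). Whether the 2 genes differ in their response was not tested.

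Of the 3 receptor genes, Rarb and Rxrg rose and Rara did not pass the threshold. Rara (ENSMUSG00000037992, chr11:98927818-98974942, plus strand), the receptor with the broadest expression, was at 20.5, 19.3, 25.1 and 24.0 CPM in control and at 22.4, 21.1, 19.7 and 25.7 CPM in mutant replicates 1 to 4. The groups overlapped almost fully, with means of 22.2 ± 2.78 and 22.2 ± 2.59 CPM (SD, n = 4 each). The log2 fold change rounded to 0.00 ± 0.12 (SE, edgeR's adjusted p = 0.987), and its sign turned with the scaling.

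Rarb (ENSMUSG00000017491, chr14:16430839-16819156, minus strand) was at 3.68, 10.9, 4.55 and 4.34 CPM in control replicates 1 to 4 and at 44.5, 12.6, 46.0 and 22.2 CPM in mutant replicates 1 to 4. Mutant 2 was only just above control 2, the highest control, and the other mutants were well above it. The mean rose from 5.87 ± 3.37 to 31.3 ± 16.6 CPM (SD, n = 4 mice in each group), a log2 fold change of 2.43 ± 0.54 (SE, edgeR's adjusted p = 0.0115; 0.103 with a replicate block). Of the annotated exon bases of Rarb, 1793 (34.1%) also lie in exons of Top2b on the opposite strand. The library kit does not mark strand, so reads from that stretch cannot be assigned to either gene. Top2b was at 361 to 405 CPM in the controls and 312 to 366 CPM in the mutants, with a log2 fold change of -0.15 (edgeR's adjusted p = 0.139). At the control level of Top2b per kilobase, 25.9 CPM, the shared stretch would hold 46.4 CPM, more than the whole value of Rarb in any control. The same was not worked out at the mutant level of Top2b.

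Rxrg (ENSMUSG00000015843, chr1:167598384-167639623, plus strand) was at 4.05, 11.2, 4.91 and 4.76 CPM in control replicates 1 to 4 and at 72.3, 19.7, 90.0 and 40.3 CPM in mutant replicates 1 to 4. Its samples stood in the order of those of Rarb, with control 2 highest among controls and mutant 2 lowest among mutants. The mean rose from 6.24 ± 3.35 to 55.6 ± 31.6 CPM (SD, n = 4 each), which is 8.91-fold. The log2 fold change of 3.17 ± 0.58 (SE, edgeR's adjusted p = 0.00591; 0.0723 with a replicate block) was the largest of the 9. The spread among mutants exceeded 4-fold, so the size of the rise is known less well than its direction, which held in 4 of 4 mutants.

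The 5 calls were repeated without mutant replicates 1 and 2, the samples with the highest sums of choroid plexus markers, an alternative chosen after seeing the data. The log2 fold changes were then -2.10 for Aldh1a3, -0.66 for Cyp26b1, 2.85 for Crabp1, 2.55 for Rarb and 3.40 for Rxrg. Their adjusted p-values were 7.03e-04, 0.0148, 0.0278, 0.0155 and 0.00650 in edgeR's test. All 5 thus passed with the 2 remaining mutants, while with a replicate block over all 8 samples only Aldh1a3 and Cyp26b1 of the 5 did. The sequencing lanes each held both groups, with replicates 1 and 2 together in lane 5, replicate 3 alone in lane 6 and replicate 4 alone in lane 7. The direction of the 5 genes was the same within each lane. It had to be, because their groups do not overlap, so it carries no information on lanes. Lanes 6 and 7 have 1 sample of each group and allow no test.

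Retinoic acid receptors bind direct repeats of a short core sequence, and a repeat with a spacing of 5 bases (DR5) in the promoter of Rarb is a textbook retinoic acid response element. Promoter windows of RefSeq (GRCm38.p6, the build of mm10), from 250 bases before to 50 after a start site, were matched for 7 of the 9 genes, in 12 windows. Aldh1a3 and Crabp2 had no window. Searched on both strands were GNTCANNNNNNGNTCA for DR5, GNTCANNNGNTCA for DR2 and GNTCANNGNTCA for DR1. These letters occur in 0.861%, 1.12% and 1.26% of the 32851 windows of all genes. Among the 9 genes only Rarb had a match, for DR5, and the other 6 genes with windows had none for the 3 motifs. The 250 bases before its start are shown because Rarb rose, beside those of Cyp26a1, which also holds a DR5 match and was singled out after its values were seen. Capitals mark the repeat with its spacer.
Rarb, chr14:16575477-16575726, minus strand: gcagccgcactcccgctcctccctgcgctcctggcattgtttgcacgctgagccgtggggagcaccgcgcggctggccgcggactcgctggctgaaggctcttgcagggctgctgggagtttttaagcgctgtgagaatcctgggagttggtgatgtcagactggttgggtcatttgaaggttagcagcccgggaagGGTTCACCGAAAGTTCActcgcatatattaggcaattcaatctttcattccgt
Cyp26a1, chr19:37697558-37697807, plus strand: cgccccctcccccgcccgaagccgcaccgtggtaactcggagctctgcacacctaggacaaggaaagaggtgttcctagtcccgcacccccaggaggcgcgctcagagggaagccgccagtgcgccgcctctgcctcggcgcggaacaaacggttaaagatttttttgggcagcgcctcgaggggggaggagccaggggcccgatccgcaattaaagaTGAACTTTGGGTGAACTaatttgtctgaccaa
The Rarb match lies at chr14:16575513-16575529 and ends 36 bases before the start. The Cyp26a1 match, read on the other strand, lies at chr19:37697776-37697792 and ends 15 bases before the start. The genes with these windows had different values: Rarb was higher in the mutants, and Cyp26a1 stayed between 0.148 and 0.444 CPM in all 8 samples. The counts cover the whole gene, whichever start is used. A match describes letters only, and binding at these places was not measured.

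Levels of different genes were compared per length, as RPKM (CPM per kilobase of annotated exons). In control cortex the order of mean RPKM was Cyp26b1 at 7.44, Rara at 5.10, Crabp1 at 4.64, Rxrg at 2.72, Aldh1a3 at 2.13, Aldh1a2 at 1.18, Rarb at 1.11, Crabp2 at 0.772 and Aldh1a1 at 0.491. The place of Rarb depends on the bases it shares with Top2b: with these left out of its length, an alternative added after seeing the data, its control mean was 1.69, above that of Aldh1a2, and its mutant mean was 9.02, at an unchanged place. Only Cyp26b1 and Rara, the top pair, were neighbours whose samples did not overlap. In mutant cortex the order was Crabp1 at 30.7, Rxrg at 24.2, Rarb at 5.95, Rara at 5.09, Cyp26b1 at 4.02, Aldh1a2 at 2.99, Crabp2 at 1.80, Aldh1a3 at 0.512 and Aldh1a1 at 0.485. There, only Crabp2 and Aldh1a3 were neighbours without overlap. Cyp26b1 thus went from the 1st to the 5th place, and Crabp1 from the 3rd to the 1st.

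**Figure D2:**
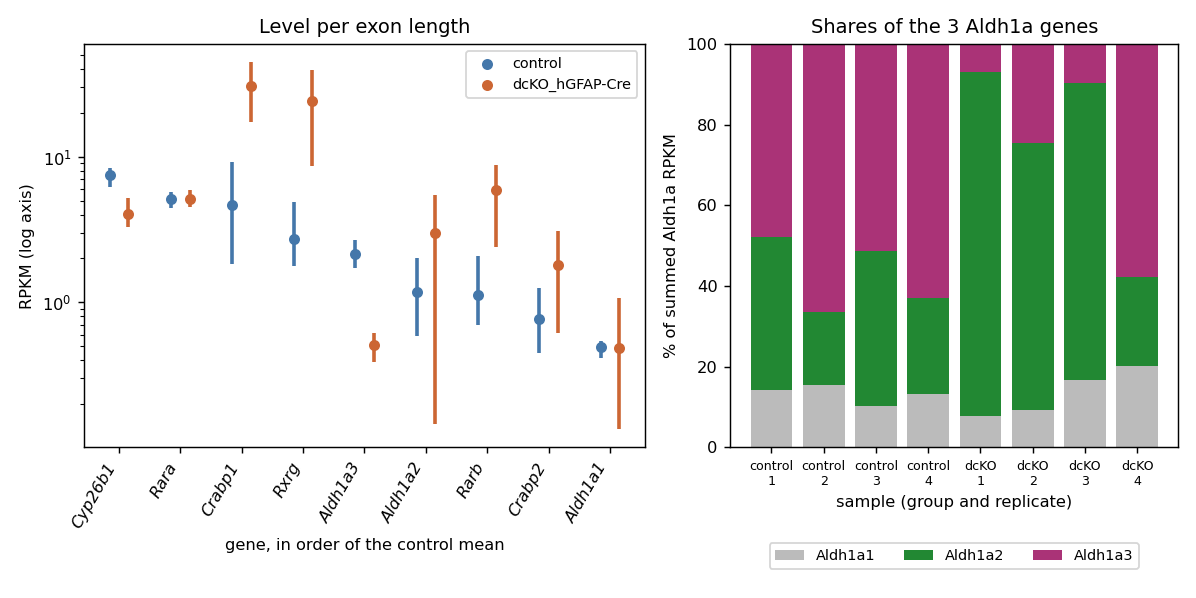
Left, mean RPKM (points, log axis) and range over 4 mice (lines) of the 9 genes in control (blue) and dcKO_hGFAP-Cre (orange) cortex. Right, share of each Aldh1a gene in the summed Aldh1a RPKM of every sample, in percent. Aldh1a3 held 47.8 to 66.4% in the controls and 6.83, 24.5, 9.60 and 57.8% in mutant replicates 1 to 4.

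The mean summed RPKM of the 3 Aldh1a genes differed between the groups by less than the spread among the mutants. The controls had 3.81 ± 0.982 and the mutants 3.99 ± 2.87 (SD, n = 4 mice in each group), with 6.38, 2.51, 6.39 and 0.667 in mutant replicates 1 to 4. Aldh1a3 made up 57.1 ± 8.99% of the sum in control and 24.7 ± 23.4% in mutant cortex (SD, n = 4 each), and Aldh1a2 made up 29.6 ± 10.2% and 61.8 ± 27.7%. In mutants 1, 2 and 3 Aldh1a2 held the larger share, at 85.3, 66.3 and 73.6%. Mutant 4 had shares within the range of the controls for Aldh1a2 and Aldh1a3, at a summed level below every control.

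The rest of the pathway was read from a list of 30 genes, of which 24 were tested. Of these, 6 rose and 4 fell, so 10 of 24 passed, close to the 37.5% of all genes that did. The median log2 fold change was 0.18, against 0.02 over all genes. Lrat, which esterifies retinol for storage, rose from a very low level of 2 to 10 counts in the controls to 14 to 20 in the mutants (log2 fold change 1.15, edgeR's adjusted p = 0.0293). Its call was lost with DESeq2 (adjusted p = 0.0717) and without control replicate 1 (0.0576), control replicate 3 (0.0934), mutant replicate 1 (0.0603) or mutant replicate 2 (0.0589). Rises were also found in the retinoid transporter homologue Stra6l, the receptor Rxra, the retinol dehydrogenase Rdh10 and the alcohol dehydrogenase Adh5, with log2 fold changes of 0.89, 0.58, 0.42 and 0.31. Stra6l lost its call without control replicate 3 (adjusted p = 0.0650), control replicate 4 (0.0575), mutant replicate 1 (0.0623) or mutant replicate 4 (0.0525), and Rdh10 without control replicate 4 (0.0518) or mutant replicate 1 (0.0647). Rxra and Adh5 passed with each sample left out in turn. With mutant replicates 1 and 2 both left out they did not, with log2 fold changes of 0.45 and 0.23 (edgeR's adjusted p = 0.0606 and 0.129). Nor did Lrat, Stra6l and Rdh10, with 1.17, 0.91 and 0.30 (0.131, 0.0892 and 0.171). The log2 fold changes of Lrat and Stra6l were thus as large as with all samples, while fewer samples entered.

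Among the genes that fell were Rdh11, a retinal reductase, the corepressor Ncor1 and the coactivator Ncoa1, with log2 fold changes of -0.36, -0.34 and -0.36. Ncor1 was the most abundant gene of the list, at a mean of 263 CPM. None of these 3 passed with library totals, and Ncor1 also lost its call without mutant replicate 2 (adjusted p = 0.0592). Rdh11 lost it without control replicate 3 (0.0772), control replicate 4 (0.0508) or mutant replicate 1 (0.0504). With mutant replicates 1 and 2 both left out neither Ncor1 (log2 fold change -0.28, 0.159) nor Rdh11 (-0.30, 0.168) passed. The number of rises was 3 in place of 6 without mutant replicate 1, and with mutant replicates 1 and 2 both left out 1 gene of the list passed in each direction. The other receptors, Rarg and Rxrb, had log2 fold changes of -0.30 and -0.03 and did not pass, while without control replicate 1 Rarg did, with -0.38 (adjusted p = 0.0418). Ttr, a transport protein of blood and cerebrospinal fluid that is abundant in choroid plexus, was at 584, 1128, 15.8 and 1.72 CPM in mutant replicates 1 to 4 and at 0.0664 to 9.37 CPM in the controls. In mutants 1 and 2 it made up most of the summed choroid plexus markers. Ttr did not pass the threshold (edgeR's adjusted p = 0.0568), but it did with DESeq2 (2.30e-04), without mutant replicate 3 (0.0466) and without mutant replicate 4 (0.0273). Of the 6 genes not tested, Dhrs9 had no count in any sample, and Bco1, Adh7, Aldh8a1, Cyp26a1 and Cyp26c1 were under the filter.

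**Figure D3:**
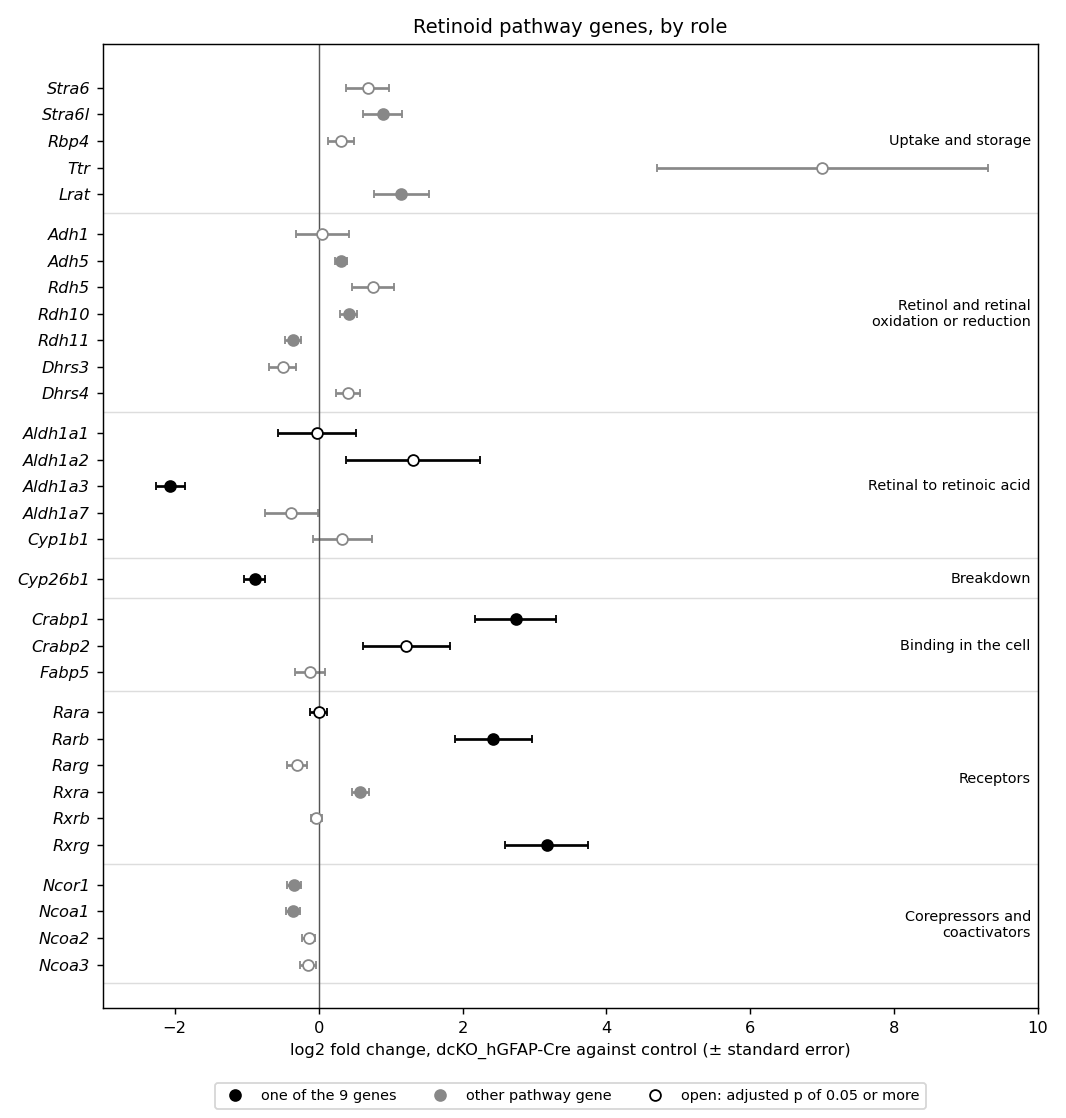
Log2 fold change of dcKO_hGFAP-Cre against control (horizontal axis, bars are standard errors (SE), n = 4 mice each) for retinoid genes that were tested, grouped by role. Black marks are the 9 genes and grey marks other genes of the pathway, filled where the adjusted p is under 0.05. Aldh1a3 and Cyp26b1 lie left of 0, and Crabp1, Rarb and Rxrg lie farthest right among the filled marks.

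A list of 18 genes known to be induced by retinoic acid in some tissues was read in the same way, 5 of which also stand in the pathway list. Of 13 tested, 7 rose and 1 fell, where 18.6% of all genes tested rose and 18.9% fell. The median log2 fold change was 0.68, against 0.02 over all genes. Meis1, a homeobox gene, was at 3.91, 3.80, 3.89 and 3.06 CPM in control and at 12.7, 5.72, 11.3 and 8.85 CPM in mutant replicates 1 to 4 (log2 fold change 1.40, edgeR's adjusted p = 4.85e-04). Like Rarb and Rxrg it was lowest in replicate 2 among the mutants. Drd2, a dopamine receptor gene that is also in the list of striatal markers, had a log2 fold change of 2.08 (edgeR's adjusted p = 0.00984). It did not pass with a replicate block (0.0677), and mutant replicate 2, at 2.46 CPM, lay within the control range of 1.24 to 2.91 CPM. Tshz1, Egr1 and Meis2 had log2 fold changes of 1.18, 1.13 and 0.52. Gbx2, a homeobox gene, had 0, 1, 1 and 0 counts in the controls and 33, 46, 32 and 50 counts in the mutants (edgeR's adjusted p = 6.09e-06). Exons of the antisense gene D130058E05Rik cover 43.5% of its own. Nrip1, a cofactor of nuclear receptors, fell in every mutant, with a log2 fold change of -0.94 (edgeR's adjusted p = 6.87e-06). Cyp26a1, Cdx1 and Hoxb1 were among the genes not tested.

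The variation among the samples was set beside marker lists of the cell types that the tissue could hold. The counts of each list are to be read against the 18.6% of all genes tested that rose and the 18.9% that fell. Of 12 markers of striatal projection neurons, 9 rose and none fell, with a median log2 fold change of 2.11. Their summed level was 135, 199.8, 136 and 136 CPM in control replicates 1 to 4 and 722, 396, 775 and 505 CPM in mutant replicates 1 to 4. The order of the mutants, 3, 1, 4 and 2 from high to low, was that of Rxrg, Rarb and Crabp1, and in all 4 measures control 2 was the highest control. The most abundant marker, Ppp1r1b, did not share this order. It was at 34.2 to 49.1 CPM in the controls and at 343, 276, 342 and 271 CPM in mutant replicates 1 to 4. Tac1, Pdyn and Isl1 rose with log2 fold changes of 2.30, 1.46 and 3.43, while Drd1, which marks neurons of the direct pathway, had a log2 fold change of -0.17 (edgeR's adjusted p = 0.742), which was 0.06 without mutant replicate 2. No marker of the list was at 0 in all samples. Six3 also passed, but not without control replicate 3 (adjusted p = 0.0616), with no filter on low counts (0.0643) or with a replicate block (0.0979). Penk and Ebf1 passed as well and lost their calls without control replicate 1 (0.0844 and 0.0717), control replicate 3 (0.0930 and 0.0874), control replicate 4 (0.0968 and 0.0747), mutant replicate 1 (0.0680 and 0.0516) or mutant replicate 3 (0.0695 and 0.0696), and also with a lane block (0.0806 and 0.0562), a replicate block (0.163 and 0.123) or no filter on low counts (0.0772 and 0.0702). The part of striatal cells in the rise of Rxrg, Rarb and Crabp1 was not tested.

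The samples of Aldh1a2 and Crabp2 were ordered otherwise, as the plot of genes and marker lists shows. Of 12 markers of meningeal fibroblasts, only Zic1 rose, with a log2 fold change of 0.98 (edgeR's adjusted p = 0.00468; 0.0578 with mutant replicates 1 and 2 both left out), and none fell. Their summed level was 94.0, 66.4, 174 and 61.5 CPM in control replicates 1 to 4 and 280, 121, 211 and 47.2 CPM in mutant replicates 1 to 4. Mutants 1 and 3 were above all controls and mutant 4 was under all of them, as for Aldh1a2, and the mutants stood in the same order. The most abundant marker, Col1a2, was at 62.7, 20.9, 46.0 and 5.92 CPM in the mutants and at 13.5 to 47.3 CPM in the controls. The part of meningeal cells in the values of Aldh1a2 and Crabp2 was not tested.

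**Figure D4:**
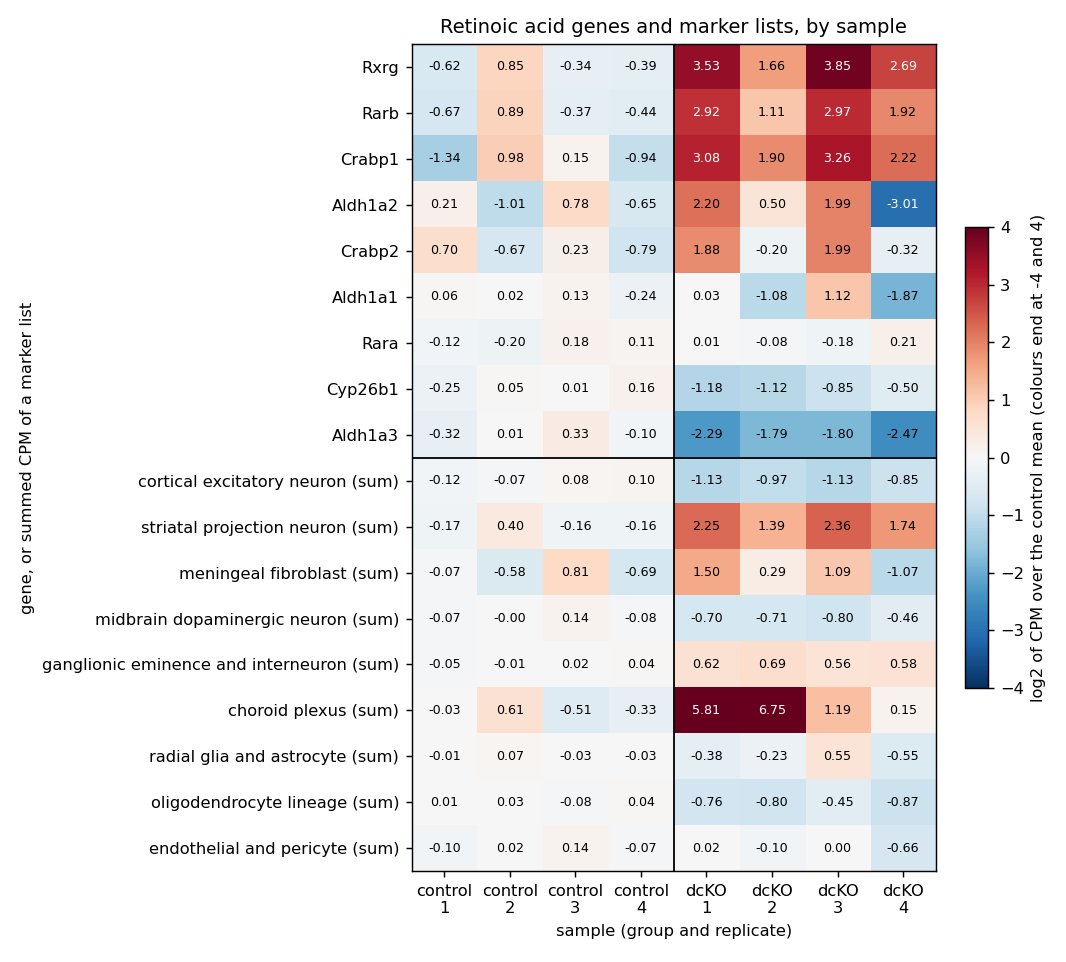
Log2 of the CPM in each sample over the control mean, for the 9 genes (above the line) and for the summed CPM of 9 marker lists (below it). Columns are the 4 control and 4 dcKO_hGFAP-Cre mice, red is higher and blue lower, and colours end at -4 and 4. Rxrg, Rarb, Crabp1 and the striatal sum are weakest in dcKO_hGFAP-Cre replicate 2, and Aldh1a2 and the meningeal sum are lowest in replicate 4.

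Aldh1a3 and Cyp26b1 were lower in the mutants together with the markers of cortical excitatory neurons, of which 9 of 10 fell, with a median log2 fold change of -0.97. Neurod6, the most abundant, fell with a log2 fold change of -2.04, and Emx1 and Fezf2 with -2.13 and -1.08. Tbr1 did not pass, with a log2 fold change of 0.07 (edgeR's adjusted p = 0.594), which was -0.02 without mutant replicate 4. Among the mutants, the sum of these markers was highest in replicate 4, at 1124 CPM. In that sample Aldh1a3 was lowest, at 1.78 CPM, and Cyp26b1 was highest, at 28.1 CPM. Markers of the oligodendrocyte lineage fell as well, as described below. The part of cortical excitatory neurons in the 2 falls was not tested. Aldh1a1 marks a subset of midbrain dopaminergic neurons. Of 9 markers of these neurons 5 were tested, of which Th rose and Nr4a2, which cortical neurons also express, fell. Th was at 0.232 to 0.736 CPM in the controls and 0.664 to 1.64 CPM in the mutants, a log2 fold change of 1.36. Its call was lost without control replicate 2 (adjusted p = 0.0512) or without control replicate 3 (0.0541). It was also lost with mutant replicates 1 and 2 both left out (0.0813), at a log2 fold change of 1.39. The 4 markers not tested differed. Pitx3 and Foxa2 had 0 counts in every control and at most 1 in a mutant, Lmx1b had 0 to 5 counts in the controls and 2 to 9 in the mutants, and En1 had 1, 0, 5 and 0 counts in the controls and 14, 8, 11 and 14 in the mutants, so every mutant was above every control. The sum of the 9 markers, most of it Nr4a2, was 109 to 126 CPM in the controls and 65.5 to 82.9 CPM in the mutants.

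Among markers of radial glia and astrocytes, 1 of 8 fell and none rose. Their sum was 1406, 1560, 2685 and 1249 CPM in mutant replicates 1 to 4 and 1786 to 1921 CPM in the controls, with Fabp7 the most abundant. Mutant replicate 3 stood apart from the other mutants in Gfap (273 CPM, the others at 24.15 to 32.2) and Aqp4 (53.05 CPM, the others at 9.49 to 9.92), where the controls were at 79.3 to 89.5 and 38.8 to 63.7 CPM. This sample, the highest of the 4 mutants in the sum, was also the highest in Aldh1a1, and mutant replicate 4 was the lowest in both. Of 10 markers of the ganglionic eminence and interneurons 8 rose, led in level by Dlx1, with a sum of 643 to 682 CPM in the controls and 980 to 1070 CPM in the mutants. All 7 markers of the oligodendrocyte lineage fell, with Pdgfra the most abundant and a sum of 384 to 419 CPM in the controls and 222 to 298 CPM in the mutants. Of 8 endothelial and pericyte markers 3 fell, and the most abundant, Rgs5, had a log2 fold change of 0.11. Their sum was 364 to 430 CPM in the controls and 396, 366, 391 and 247 CPM in mutant replicates 1 to 4. The mutants thus stood in the order of Aldh1a2 and the meningeal sum, with replicate 4 under all controls and the others within their range. Of the 7 choroid plexus markers tested 2 rose, Otx2 and Clic6, of which Clic6 lost its call without control replicate 1, 2, 3 or 4 (adjusted p = 0.0805, 0.0873, 0.120 and 0.112) and without mutant replicate 1 or 2 (0.0771 and 0.0744), as well as with limma-voom (0.124), no filter on low counts (0.0911) or both of these mutants left out (0.182).

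For 1 enzyme of synthesis, 1 receptor and the enzyme of breakdown, the genes with the most similar levels were looked up among 14638 genes, by Pearson's r of log2 CPM over the 8 samples. The 2 groups differ in each of these genes, so r mostly reflects the difference between groups, and it is given as a description. Closest to Aldh1a3 were Rnf103, a ubiquitin ligase (r = 0.996), Bhlhe40, a transcription factor (0.994), and Ntf3, which encodes neurotrophin-3 (0.991). Ntf3 fell from 12.7 to 2.22 CPM on average, a log2 fold change of -2.51, and Bhlhe40 and Rnf103 had log2 fold changes of -1.01 and -0.42. Closest to Rarb was Rxrg (0.994), followed by Tac1 (0.989) and Pdyn (0.986), which encode neuropeptide precursors. Closest to Cyp26b1 were Neurl1b (0.994), Map1a (0.994) and Cwh43 (0.993), with log2 fold changes of -0.41, -0.65 and -0.74. With mutant replicates 1 and 2 both left out, Neurl1b and Cwh43 did not pass (adjusted p = 0.0632 and 0.112), with log2 fold changes of -0.31 and -0.60. Rxrg, Tac1 and Pdyn thus shared with Rarb the high control 2 and the low mutant 2.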

How the data were processed

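RNA of P3 cortex came from 4 mutant and 4 control mice, and libraries were made with the TruSeq RNA v2 kit, which does not mark strand. The authors deposited raw counts per gene, made with featureCounts from reads aligned to mm10 and not normalized. The aligner, annotation and strand setting are not given in the sources used here. Samples were grouped by their labels. Of 48709 identifiers, 48349 matched GENCODE M21.

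Genes were tested with edgeR 4.0.16 (R 4.3.3; TMM, filterByExpr with a minimum count of 10, robust quasi-likelihood F test, Benjamini-Hochberg over 16525 genes, threshold 0.05). Two-sided exact permutation tests ran over 70 arrangements (scipy 1.17.1). RPKM used the union of annotated exons. No pair of replicates was within counting noise. At the depths given, 3 counts are 0.0906 to 0.148 CPM. The test was checked on simulated counts.

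The 9 genes and all lists were chosen with earlier results of these data known. Named were the deleted genes, the 9 genes, every list gene called with a log2 fold change of 1 or more in size, the most abundant gene of each list, and the 3 genes most like Aldh1a3, Rarb and Cyp26b1. Other list genes were named after their values were seen. Some genes of the lists are not reported here one by one and enter only the counts, medians and sums of their lists.

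Alternatives were DESeq2 1.42.0, limma-voom (limma 3.58.1), size factors of DESeq2, library totals, no filter, at least 10 counts in every sample, a replicate block, a lane block, each sample left out, another gene length and, added after seeing the data, mutant replicates 1 and 2 left out and a length of Rarb without the bases shared with Top2b.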

Additional observations from a re-analysis of the deposited data

Results flagged for a closer look

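In 268 groups of 4 samples, each the control or mutant values of a tested gene described or listed here or of a summed list, 17 had 1 sample far from the other 3, where chance gives about 1 in 20 (13.4). Gaps are the distance from that sample to its nearest neighbour, divided by the whole range of its 4 samples. Control replicate 2 was the highest control in Rarb (10.9 CPM, the others at 3.68 to 4.55, gap 0.880), in Rxrg (11.2 CPM, the others at 4.05 to 4.91, gap 0.880) and in the summed striatal markers (199.8 CPM, the others at 135 to 136, gap 0.982), and the lowest in Aldh1l1 (81.3 CPM, the others at 93.9 to 96.4, gap 0.833). Control replicate 3 was the highest control in Nr4a2 (113 CPM, the others at 95.4 to 98.2, gap 0.834), Foxc1 (6.54 CPM, the others at 4.20 to 4.58, gap 0.836), Col1a1 (27.2 CPM, the others at 5.52 to 7.18, gap 0.924) and Cdh5 (34.2 CPM, the others at 24.0 to 25.4, gap 0.863). Control replicate 4 was the lowest control in Meis1 (3.06 CPM, the others at 3.80 to 3.91, gap 0.864), and control replicate 1 in Neurl1b (79.2 CPM, the others at 87.7 to 88.4, gap 0.922). Mutant replicate 3 was the highest mutant in 4 markers of radial glia and astrocytes, Gfap (273 CPM, the others at 24.15 to 32.2, gap 0.968), Aqp4 (53.05 CPM, the others at 9.49 to 9.92, gap 0.990), Aldh1l1 (97.3 CPM, the others at 34.1 to 42.3, gap 0.870) and Hes5 (25.96 CPM, the others at 8.785 to 11.7, gap 0.831), and in Olig1 (121.5 CPM, the others at 68.7 to 76.6, gap 0.850). Mutant replicate 4 was the highest mutant in Ncoa3 (55.1 CPM, the others at 38.1 to 40.25, gap 0.876) and Slc17a7 (167 CPM, the others at 123 to 125, gap 0.965).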

How the results depend on the processing

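Over 153 values of the 9 genes under the alternatives, 133 kept the direction and the side of the threshold. Aldh1a3 and Cyp26b1 passed in all 17 alternatives, with log2 fold changes of -2.17 to -1.92 and -1.03 to -0.66. Crabp1, Rarb and Rxrg passed in all but the replicate block, with log2 fold changes of 2.48 to 3.26, 2.19 to 2.89 and 2.84 to 3.59 over all alternatives. Whether the replicate numbers pair the samples could not be settled. The correlations of deviations of same-numbered samples were 0.171, -0.0679, 0.213 and -0.0238, within the -0.314 to 0.255 of samples with different numbers. Same-numbered samples also shared a lane. With the replicate block, the log2 fold changes of Crabp1, Rarb and Rxrg were 2.83, 2.39 and 3.09 (adjusted p = 0.0522, 0.103 and 0.0723 in edgeR's test), that of Crabp2 was 1.08 (0.0102), and 1 of the 9 genes was called higher. Among all genes it gave 2982 lower and 2932 higher. Aldh1a1 turned positive with library totals (0.11), at least 10 counts in every sample (0.00) and mutant replicates 1 and 2 left out (0.28), and lay between -0.79 and 0.33 with each sample left out. Rara did so in the same 3 settings (0.12, 0.01 and 0.03), and lay between -0.07 and 0.06. Without control replicates 1 and 3, Aldh1a1 was at 0.00 and 0.03, and without mutant replicates 2 and 4 at 0.19 and 0.33. Rara was at 0.06 and 0.03 without control replicates 3 and 4, and at 0.02 and 0.05 without mutant replicates 2 and 3. Col1a2 (-0.05 without mutant replicate 1, up to 0.97 without control replicate 3), Fabp7 (-0.02 without mutant replicate 3, up to 0.38 without mutant replicate 4), Rgs5 (-0.03 without mutant replicates 1 and 2), Drd1 (0.07 without mutant replicates 1 and 2, -0.54 to 0.06 with each sample left out), Tbr1 (-0.02 to 0.14 with each sample left out) and Rxrb (0.09 with library totals, -0.07 to 0.01 with each sample left out) also changed sign, none of them called. With each sample left out, 3 to 5 of the 9 genes were called higher, 3 to 9 of the other retinoid genes were called higher, and 1 to 2 of the induced genes were called lower. With mutant replicates 1 and 2 left out, 1581 genes were lower and 1388 higher, with 1 other retinoid gene in each direction. With library totals, 0 of the other retinoid genes were lower. Of the induced genes, 2 were lower with DESeq2, limma-voom, no filter, the replicate block and the lane block. Fewer samples enter where some are left out, and otherwise the cause was not tested. With the longest transcript as length, 7 of 9 genes kept their rank by RPKM in each group, and without the bases that Rarb shares with Top2b 7 did in control and 9 in mutant cortex. Depth limits the low genes most: Aldh1a2 in mutant replicate 4 rested on 11 counts and Crabp2 in control replicate 2 on 13.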
